A study of Mus musculus with 8 samples.

Results

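Cytochrome P450 enzymes of families 1 to 3 are the oxidases that the liver uses on drugs, toxins, steroids and fatty acids. Their transcripts were compared between livers of mice labelled miR-93 knockout and wild-type mice. Members were the protein-coding genes whose symbols start with Cyp1a, Cyp1b, Cyp2 and a letter, or Cyp3a. The bile acid gene Cyp2c70 and symbols ending in -ps were left out. This gave 60 of the 56748 Ensembl gene IDs counted, of which 50 had at least 1 count in some library and 36 passed the filter on low counts and were tested. Both groups ate a high fat-high fructose diet, and the labels give the disease, MASLD (fatty liver disease of metabolic origin), and the time, 16 weeks. There were 4 knockout and 4 wild-type libraries. The labels do not give sex, strain, age, or whether the deletion was made in the whole animal. Whether each library is a different animal is not said either, and the p-values reflect only how these libraries vary.

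Each P450 is a haem enzyme of the endoplasmic reticulum that takes electrons from the reductase Por and inserts 1 atom of oxygen into its substrate. Many members are switched on by the receptors AhR (Cyp1 genes), CAR (Cyp2b genes) and PXR (Cyp3a genes) when their ligands are present, and many are kept to one end of the liver lobule or to one sex. Cyp2e1, which oxidises ethanol, paracetamol and small solvents, lies around the central vein and has long been studied in fatty liver.

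The deleted microRNA is shown because its seed was searched for in the members' transcripts. RefSeq places it on the minus strand at chr5:138165574-138165596 of GRCm38.p6, and the capitals mark its seed, bases 2 to 8.
mmu-miR-93-5p: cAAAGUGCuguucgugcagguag
The matching DNA letters GCACTTT, on the transcript strand, occurred in the longest annotated 3′ UTR of 3 of the 35 tested members that have one (8.57%), namely Cyp2c29, Cyp2d10 and Cyp2u1. Over all tested genes the share was 15% (1745 of 11598), and the median 3′ UTR was 419 bases in the tested members and 1346 bases in all tested genes. Of these 3 members, Cyp2u1 was lower in the knockout, and the other 2 did not pass the test. Of the 9 members that were higher in the knockout, 0 held a match. The Mir93 locus itself had 0 counts in every library, so these counts do not check the genotype labels.

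The libraries were of unequal quality. Total counts ran from 9187279 to 10966019 in the knockout group and from 5085860 to 7451026 in the wild-type group. Transcripts of the mitochondrial genome took 8.08% to 15.03% of the knockout libraries and 25.4% to 77.8% of the wild-type libraries. The highest share, 77.8%, was in wild-type replicate 4, which had 1131446 counts from the nuclear genome, so that 1 count there reads 0.562 CPM (counts scaled to a common library total) and a count of 0 allows up to 1.69 CPM (counting error only). Levels below are CPM scaled by TMM, a method that sets the libraries to a common centre. Results are given with this library and, where it matters, without it. Mitochondrial share and total count differ between the groups without overlap, so their part in any result cannot be told apart from genotype. Ddx3y, which is on the Y chromosome, had 71 to 608 counts per library and Xist had 0 to 3, as in male liver, in every library.

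Of the 36 tested members, 9 were higher and 4 were lower in the knockout, and 23 did not pass the test (edgeR quasi-likelihood test, Benjamini-Hochberg adjusted p under 0.05 over all 13204 genes tested). The higher members were Cyp2e1, Cyp3a13, Cyp2c37, Cyp2c38, Cyp2c39, Cyp2c69, Cyp2d26, Cyp2d40 and Cyp2a5, and the lower ones were Cyp2a4, Cyp2j6, Cyp2j9 and Cyp2u1. Among all tested genes 21.0% were called, 10.4% higher and 10.7% lower, while among the tested members 36.1% were called, 25.0% higher and 11.1% lower. The members' share of lower calls was thus near that of all genes in this fit. It was not near it without wild-type replicate 4, where 35.9% of members and 17.5% of genes were lower. The median log2 fold change was 0.27 over the tested members and -0.01 over all tested genes. Entry to the test was uneven among scarce members with 0 counts in wild-type replicate 4. Cyp2c39 and Cyp2c69 passed the filter through the knockout libraries, where they were high, while Cyp2b10 and Cyp2c55, high in other wild-type libraries, were removed. With no filter, 10 of 50 members were higher and 5 lower, against 5.37% and 4.43% of genes. The 4 knockout libraries lay wholly above the 4 wild-type libraries for 12 tested members and wholly below for 6, where 30.3% of all tested genes had groups that did not overlap. Because this is bulk RNA, fewer cells that make a transcript and less transcript per cell cannot be told apart.

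**Figure D1:**
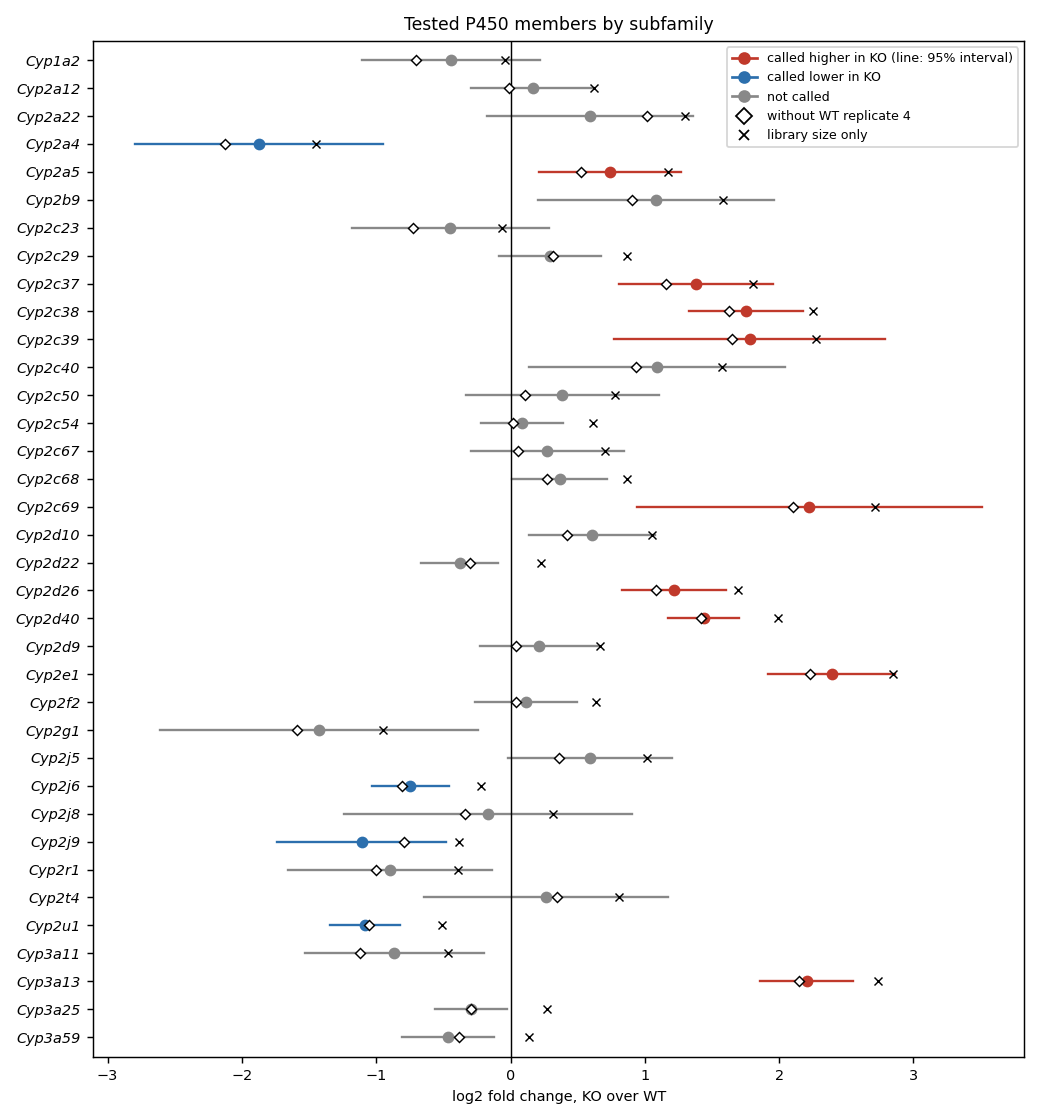
Log2 fold change, knockout over wild type, for the 36 tested members, grouped by subfamily, with its 95% interval as a line. Red and blue points are the 9 higher and 4 lower members, grey points are not called. Open diamonds are the values without wild-type replicate 4 and crosses those scaled by library size only, which lie to the right of the points because that scaling moves the median of all tested genes to 0.54.

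Without wild-type replicate 4, 39 members were tested, 15 were higher and 14 were lower, and the 13 calls made with all libraries were all kept. These were 38.5% and 35.9% of the tested members. The background rose as well, to 17.8% higher and 17.5% lower among 13777 genes. The median over the members was then 0.08. Scaling by library size alone, which moves the median of all genes to 0.54, left 7 members higher and 0 lower, with 4.25% of genes higher and 0.939% lower. It ended the calls of Cyp2a4, Cyp2a5, Cyp2c37, Cyp2d26, Cyp2j6, Cyp2j9 and Cyp2u1 without changing their direction. Cyp2e1, Cyp3a13, Cyp2c38 and Cyp2d40 were higher and called under all 19 alternatives tried.

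Cyp2e1 read 5974, 7047, 6207 and 6427 CPM in knockout replicates 1 to 4, and 1616, 1113, 1391 and 771 CPM in wild-type replicates 1 to 4. The lowest knockout library was above the highest wild-type library. The means of 6414 ± 461 and 1223 ± 365 CPM (SD, n = 4 each) correspond to a 5.24-fold higher level, a log2 fold change of 2.39 ± 0.22 (SE; edgeR adjusted p = 3.3e-05). Without wild-type replicate 4 the log2 fold change was 2.23. Cyp2e1 alone took 42.8% to 45.9% of all counts over the members in the knockout libraries and 13.8% to 17.2% in the wild-type libraries, and wild-type replicate 4, at 15.4%, lay among the other wild-type libraries in this share. Its 95% exact binomial interval there was 14.7% to 16.2%. Unlike the CPM, this share does not depend on how libraries are scaled.

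**Figure D2:**
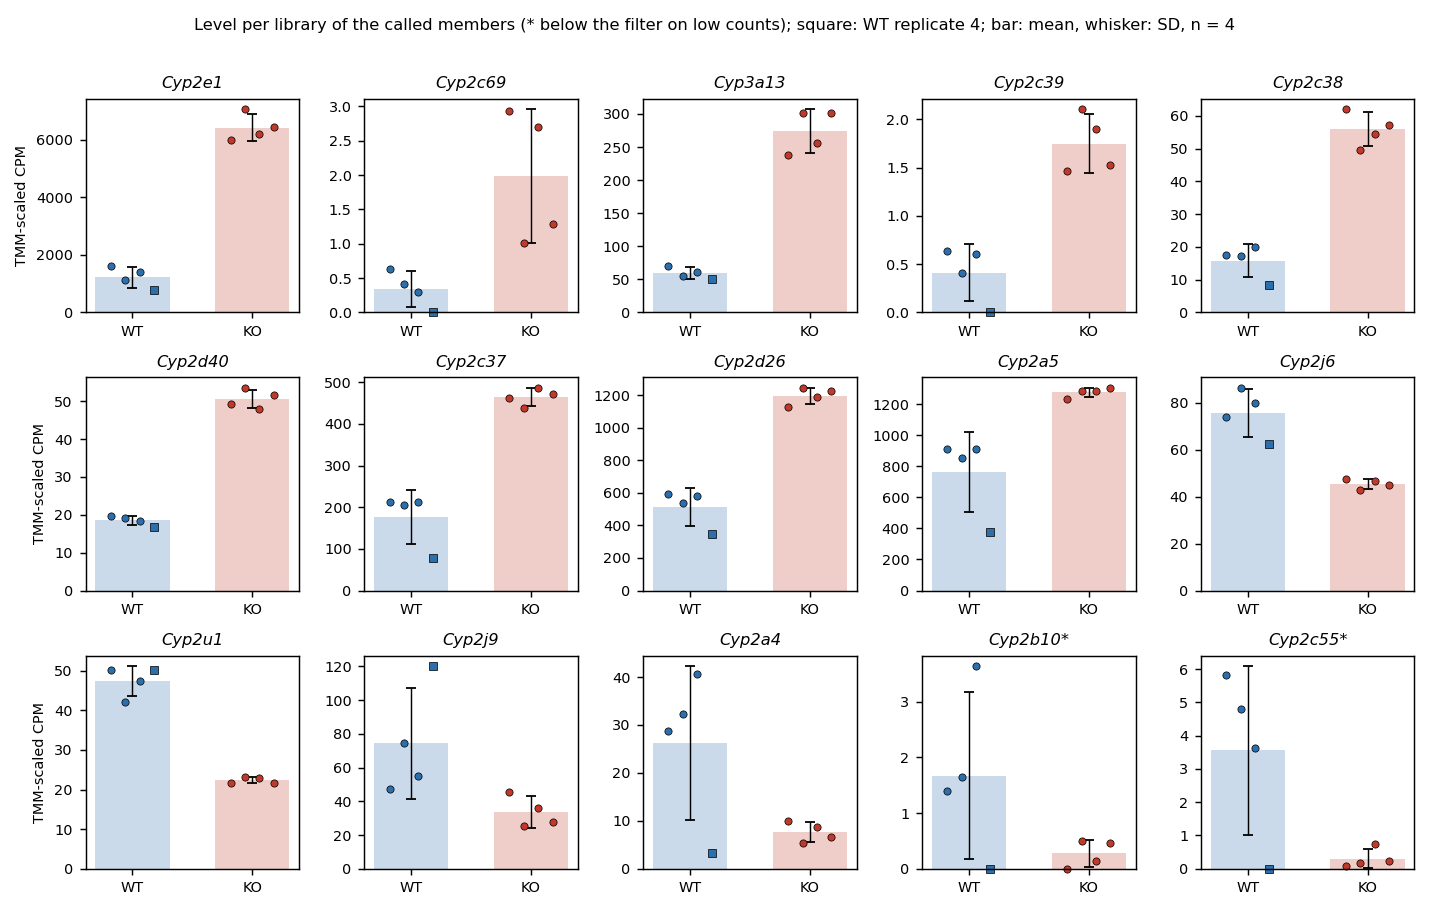
TMM-scaled CPM per library of the 13 called members, from the most raised to the most lowered, and of Cyp2b10 and Cyp2c55, which were below the filter on low counts. Bars are means, whiskers the SD over 4 libraries, points single libraries, and the square is wild-type replicate 4. The groups are apart in every panel of a called member other than Cyp2a4, where the square lies below the knockout libraries.

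The Cyp2c subfamily, whose enzymes oxidise arachidonic and linoleic acid as well as many drugs, had 14 members. Of these, 11 were tested, with 4 higher and 0 lower. Without wild-type replicate 4, 12 were tested, with 6 higher and 2 lower. Beside the subfamily counts here and below, 10.4% of all tested genes were higher and 10.7% lower (17.8% and 17.5% without that library). Cyp2c37, an arachidonic acid hydroxylase, read 462, 438, 487 and 471 CPM in the knockout and 211, 204, 213 and 79.3 CPM in the wild type. The groups did not overlap, and the log2 fold change was 1.38 ± 0.26 (SE; edgeR adjusted p = 0.00385), or 1.16 without wild-type replicate 4. Cyp2c38, an arachidonic acid epoxygenase, read 62.0, 49.6, 54.5 and 57.3 CPM in the knockout and 17.4, 17.3, 20 and 8.43 CPM in the wild type. It rose by a log2 fold change of 1.75 ± 0.19 (SE; edgeR adjusted p = 0.000122), with groups apart. Its neighbour Cyp2c39, which hydroxylates retinoic acid, was scarce: 1.47, 2.10, 1.90 and 1.52 CPM against 0.632, 0.412, 0.607 and 0 CPM. Its log2 fold change of 1.78 ± 0.46 (SE; edgeR adjusted p = 0.0194) rests on 18 to 26 counts per knockout library and 0 to 5 per wild-type library. The call was lost when knockout replicate 2, knockout replicate 3 or wild-type replicate 2 was left out (adjusted p of 0.0655, 0.0558 and 0.0667).

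Cyp2c69, which is known as higher in females, was as scarce, with 12 to 37 counts in the knockout libraries and 0 to 5 in the wild-type libraries. Its levels of 2.93, 1.01, 2.7 and 1.29 CPM lay above the 0.632, 0.412, 0.303 and 0 CPM of the wild type, and its log2 fold change was 2.22 ± 0.59 (SE; edgeR adjusted p = 0.0212). The call was lost without wild-type replicate 2 (adjusted p = 0.0655) and without wild-type replicate 3 (adjusted p = 0.0633), and 54.3% of the 50-base stretches of its transcripts also occur in other genes, mainly Cyp2c40. The 7 tested Cyp2c members that did not pass were Cyp2c23, Cyp2c29, Cyp2c40, Cyp2c50, Cyp2c54, Cyp2c67 and Cyp2c68. Cyp2c40 was above the wild type in every knockout library (1.09, 95% interval 0.14 to 2.04). Without wild-type replicate 4, Cyp2c40 (0.93, edgeR adjusted p = 0.0497) and Cyp2c68 (0.27, adjusted p = 0.0499) were higher, just under the threshold. Cyp2c29, Cyp2c50, Cyp2c54 and Cyp2c67 did not pass there either. Cyp2c29, a target of the receptor CAR, had a log2 fold change of 0.30 (95% interval -0.09 to 0.68), and Cyp2c54 had 0.09 (-0.22 to 0.39). Cyp2c23, an arachidonic acid epoxygenase, had -0.45 with all libraries and was lower without wild-type replicate 4 (-0.73, adjusted p = 9.93e-07).

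Cyp2c55 went the other way, but the filter removed it because wild-type replicate 4 had 0 counts. It is a linoleic and arachidonic acid oxidase that CAR and PXR raise. It had 1, 2, 10 and 3 counts in the knockout and 46, 35, 24 and 0 counts in the wild type. The 3 deeper wild-type libraries were all above every knockout library. With no filter its log2 fold change was -3.58 (edgeR adjusted p = 0.000832), and without wild-type replicate 4 it was -3.88 (adjusted p = 5.72e-07). Cyp2c65 and Cyp2c66 had 0 counts in every library.

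The Cyp2d subfamily, which in mice has many more genes than the single human CYP2D6, had 8 members, of which 5 were tested, with 2 higher and 0 lower. Cyp2d26 read 1126, 1242, 1191 and 1223 CPM in the knockout and 591, 536, 579 and 345 CPM in the wild type. The groups were apart by a log2 fold change of 1.22 ± 0.18 (SE; edgeR adjusted p = 0.000807), and by 1.08 without wild-type replicate 4. Cyp2d40 read 49.2, 53.6, 48.1 and 51.6 CPM in the knockout and 19.7, 19.1, 18.4 and 16.9 CPM in the wild type. Its log2 fold change was 1.44 ± 0.12 (SE; edgeR adjusted p = 1.65e-05), and here wild-type replicate 4 lay close to the other wild-type libraries. Cyp2d10 was above the wild type in every knockout library without passing (0.61, 95% interval 0.14 to 1.08, adjusted p = 0.0656), and passed under 5 of 19 alternatives, among them without wild-type replicate 4 (0.42, adjusted p = 0.000528). Cyp2d22, the mouse gene often compared with CYP2D6, was below the wild type in every knockout library and passed under 4 alternatives, among them without that library (-0.30, adjusted p = 0.00982, against -0.38 and 0.0621), but had 0.23 by library size only. Cyp2d9, a testosterone hydroxylase of male liver, had 0.21 (-0.23 to 0.66). Cyp2d11, Cyp2d12 and Cyp2d34 had at most 15 counts in a library and were not tested.

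In the Cyp2a subfamily 2 near-identical genes moved in opposite directions. Cyp2a5 oxidises coumarin and nicotine, and Cyp2a4 hydroxylates testosterone and is known as higher in females. Cyp2a5 read 1232, 1285, 1283 and 1303 CPM in the knockout and 912, 852, 911 and 375 CPM in the wild type. The groups were apart, but the log2 fold change of 0.74 ± 0.24 (SE) was at the threshold (edgeR adjusted p = 0.0499) and the call was lost under 10 of 19 alternatives, among them leaving out any 1 library other than wild-type replicate 4 (adjusted p of 0.0514 to 0.117). Without wild-type replicate 4 it was 0.53 (adjusted p = 2.15e-05). Cyp2a4 read 10, 5.30, 8.62 and 6.70 CPM in the knockout and 28.8, 32.3, 40.7 and 3.37 CPM in the wild type. The groups overlapped, since wild-type replicate 4, with 6 counts, lay below every knockout library. The log2 fold change was -1.87 ± 0.42 (SE; edgeR adjusted p = 0.0102), and -2.13 without that library (adjusted p = 1.96e-09). With no filter on low counts the call was lost (adjusted p = 0.1).

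The promoters of the pair are shown because the genes went opposite ways while these sequences hardly differ. They run from 250 bases before the annotated start to 30 bases from it, on the plus strand, from RefSeq on GRCm38.p6, at chr7:26835089-26835368 for Cyp2a5 and chr7:26306942-26307221 for Cyp2a4. Over 279 aligned bases 274 were the same, and the capitals mark the 5 that differed.
Cyp2a5: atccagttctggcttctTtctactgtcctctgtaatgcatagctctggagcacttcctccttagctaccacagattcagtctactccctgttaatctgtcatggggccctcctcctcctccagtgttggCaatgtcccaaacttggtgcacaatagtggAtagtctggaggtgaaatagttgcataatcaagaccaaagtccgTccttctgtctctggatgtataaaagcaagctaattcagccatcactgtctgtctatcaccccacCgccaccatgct
Cyp2a4: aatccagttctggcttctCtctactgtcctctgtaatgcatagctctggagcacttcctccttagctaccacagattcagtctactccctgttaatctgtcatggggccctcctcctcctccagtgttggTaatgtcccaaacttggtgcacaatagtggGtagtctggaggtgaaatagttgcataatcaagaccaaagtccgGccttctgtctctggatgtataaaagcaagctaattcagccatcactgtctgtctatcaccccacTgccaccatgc
The ratio of Cyp2a5 to Cyp2a4 counts within a library, which no scaling can change, was 123, 242, 149 and 195 in the knockout and 31.7, 26.4, 22.4 and 111 in the wild type. All 4 knockout libraries were above all 4 wild-type libraries. The 111 of wild-type replicate 4 rests on 6 counts of Cyp2a4, so its place below the knockout range is uncertain. Of the 50-base stretches of their transcripts, 38.0% of those of Cyp2a4 and 37.0% of those of Cyp2a5 also occur in other genes, mainly in each other, so reads can have been split between them. The rule for such reads was not stated in the labels.

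The other Cyp2a members did not pass. Cyp2a12 had a log2 fold change of 0.16 (95% interval -0.29 to 0.62), which turned to -0.01 without wild-type replicate 4. Cyp2a22 had 0.59 (adjusted p = 0.253) and passed under 4 of 19 alternatives, among them without that library (1.02, adjusted p = 0.000331).

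The Cyp2b genes, the best known targets of CAR, were barely expressed. Cyp2b9, known as higher in females, was the only one of 5 tested, at 4.8, 4.71, 4.97 and 4.26 CPM in the knockout and 2.65, 3.30, 1.52 and 0 CPM in the wild type. The groups did not overlap, and the log2 fold change of 1.09 (95% interval 0.21 to 1.97) missed the threshold (edgeR adjusted p = 0.077), which it passed under 3 of the 17 alternatives that tested it, among them without wild-type replicate 4 (0.91, adjusted p = 0.0138). Cyp2b10, the gene used most often to read CAR activity, had 0, 6, 2 and 6 counts in the knockout and 11, 12, 24 and 0 in the wild type, and fell below the filter because of the last library. Its log2 fold change was -2.65 with no filter (edgeR adjusted p = 0.0242) and -2.93 without wild-type replicate 4 (adjusted p = 0.000563). With single knockout libraries left out the adjusted p was 0.0557 to 0.0887. Cyp2b13 and Cyp2b19 had at most 3 counts in a library, and Cyp2b23 had 0 in all.

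In family 3, 1 of 4 tested members rose and 0 fell. Cyp3a13, a PXR-responsive enzyme also known from the intestine, read 237, 301, 256 and 302 CPM in the knockout and 70.7, 55.4, 60.5 and 50 CPM in the wild type. The groups were far apart, with a log2 fold change of 2.20 ± 0.16 (SE; edgeR adjusted p = 5.05e-06), or 2.15 without wild-type replicate 4. None of its 50-base stretches (0%) occur in another gene. Cyp3a11, the main drug-metabolising Cyp3a enzyme of mouse liver and the standard PXR target, read 429, 469, 453 and 461 CPM in the knockout and 1182, 786, 1004 and 323 CPM in the wild type. Wild-type replicates 1 to 3 were above every knockout library and replicate 4 was below all of them. With all libraries the log2 fold change of -0.86 (95% interval -1.53 to -0.20) did not pass (edgeR adjusted p = 0.0655), and under 4 of 19 alternatives Cyp3a11 was lower, among them without replicate 4 (-1.12, adjusted p = 1.48e-08).

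Cyp3a25 and Cyp3a59 were below the wild type in every knockout library, with log2 fold changes of -0.29 and -0.47, and missed the threshold (edgeR adjusted p of 0.109 and 0.0569), and both passed without wild-type replicate 4 (adjusted p of 0.00918 and 0.0265). Scaled by library size only, both changed sign (0.27 and 0.14). Within libraries, Cyp3a13 held 0.554 to 0.655 counts for each count of Cyp3a11 in the knockout and 0.0599 to 0.155 in the wild type, with wild-type replicate 4 the highest of its group. Of the 5 other members, Cyp3a16, Cyp3a41a and Cyp3a41b had 0 counts in every library, and Cyp3a44 and Cyp3a57 had at most 1. Cyp3a16, Cyp3a41a, Cyp3a41b and Cyp3a44 are known as female genes.

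Of the Cyp1 genes, the classic targets of AhR, only Cyp1a2 was tested. This enzyme, which oxidises caffeine, read 165, 158, 176 and 162 CPM in the knockout and 283, 266, 263 and 80.4 CPM in the wild type. The knockout libraries lay between wild-type replicate 4 and the other wild-type libraries. The log2 fold change was -0.44 (95% interval -1.11 to 0.22, edgeR adjusted p = 0.318), and without replicate 4 Cyp1a2 was lower (-0.71, adjusted p = 7.95e-07). Cyp1a1, which is near silent in liver until AhR is activated, had 2 to 6 counts in the knockout and 0 to 7 in the wild type. Cyp1b1 had 7 to 27 and 4 to 8 counts. Scaled for depth, the knockout and wild-type means were 0.288 and 0.430 CPM for Cyp1a1 and 1.17 and 1.64 CPM for Cyp1b1, with overlapping groups.

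The Cyp2j subfamily, epoxygenases of arachidonic acid, had 4 tested members of 8, with 2 lower and 0 higher. Cyp2j6 read 47.3, 42.7, 46.7 and 45.1 CPM in the knockout and 74.0, 86.4, 79.9 and 62.4 CPM in the wild type, with groups apart and a log2 fold change of -0.75 ± 0.13 (SE; edgeR adjusted p = 0.00279). Cyp2j9 read 45.8, 25.2, 36.1 and 27.6 CPM against 47.1, 74.5, 55.2 and 120 CPM. Here the groups only just failed to touch, and the log2 fold change of -1.11 ± 0.29 (SE; edgeR adjusted p = 0.0194) fell to -0.79 without wild-type replicate 4. The Cyp2j9 call was kept without that library (edgeR adjusted p = 0.0223). It was lost when knockout replicate 2, 3 or 4 or wild-type replicate 2 was left out. Cyp2j5, the most abundant of the subfamily, read 180, 249, 219 and 249 CPM in the knockout and 207, 146, 173 and 65.2 CPM in the wild type. These groups overlapped, and it did not pass (0.59, edgeR adjusted p = 0.153), but without wild-type replicate 4 it was higher (0.36, adjusted p = 0.0229). Cyp2j8 was at most 1.89 CPM in any library and did not pass (-0.17, 95% interval -1.24 to 0.90). Cyp2j11 had 1 count in 1 library, and Cyp2j7, Cyp2j12 and Cyp2j13 had 0 in all.

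Cyp2u1, which hydroxylates long-chain fatty acids, was lower in every knockout library. It read 21.7, 23.1, 23.0 and 21.6 CPM in the knockout and 50.1, 42.1, 47.5 and 50 CPM in the wild type. Replicate 4 did not stand apart from the other wild-type libraries for this gene, and the log2 fold change was -1.08 ± 0.12 (SE; edgeR adjusted p = 0.000116). Of its exon bases 10.5% overlap the gene 4930534D22Rik, whose reads could not be told apart without strand. Cyp2f2, which activates naphthalene and lies around the portal vein, read 285, 445, 365 and 397 CPM against 406, 316, 369 and 282 CPM. The groups overlapped widely, with a log2 fold change of 0.12 (95% interval -0.26 to 0.50, edgeR adjusted p = 0.669).

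Cyp2r1, which makes the circulating form of vitamin D, read 1.95, 2.69, 2.19 and 3.58 CPM in the knockout and 7.83, 3.85, 3.94 and 2.81 CPM in the wild type. It did not pass with all libraries (-0.90, edgeR adjusted p = 0.0869), and passed only without wild-type replicate 4 (edgeR adjusted p = 0.0117) and under limma-voom with quality weights. Cyp2g1, an enzyme of the nose, read 0.407, 1.09, 1.17 and 0.685 CPM against 4.17, 2.34, 1.06 and 0.562 CPM and passed under the same 2 alternatives (-1.59 without that library, edgeR adjusted p = 0.0101). Cyp2t4 read 1.63, 1.18, 0.877 and 2.13 CPM against 1.26, 1.10, 1.06 and 1.69 CPM, with overlapping groups. Cyp2s1 had 1 to 21 counts in the knockout and 0 to 1 in the wild type, with 21 of them in knockout replicate 1. Cyp2ab1 had at most 2 counts, and Cyp2w1 had 0 in every library.

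Summed over all 60 members, the level was 13736, 15357, 14487 and 14777 CPM in the knockout and 9385, 8065, 8856 and 4996 CPM in the wild type. The means of 14589 ± 674 and 7825 ± 1963 CPM (SD, n = 4 each) stood in a ratio of 1.86, and no test was made on sums over the members. As a share of the nuclear counts, the members took 2.04% to 2.16% of knockout libraries, 1.22% to 1.34% of wild-type replicates 1 to 3 and 0.785% of wild-type replicate 4. By subfamily, the ratio of knockout to wild-type means was 5.24 for Cyp2e, 1.57 for Cyp2d, 1.45 for Cyp2a and 1.33 for Cyp2c, each with groups apart. It was 1.02 for Cyp2j, 1.09 for Cyp2f, 0.818 for Cyp3a and 0.739 for Cyp1a, each with overlap, and 0.471 for Cyp2u, with groups apart. Without wild-type replicate 4 the log2 ratio was 2.23 for Cyp2e, 0.53 for Cyp2d, 0.34 for Cyp2a and 0.22 for Cyp2c. With all libraries it was 2.39, 0.65, 0.54 and 0.41. Leaving out that library moved Cyp3a from -0.29 to -0.43 and Cyp1a from -0.44 to -0.71. The near-equal Cyp2j sums hid Cyp2j6 and Cyp2j9, which fell, beside the more abundant Cyp2j5.

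**Figure D3:**
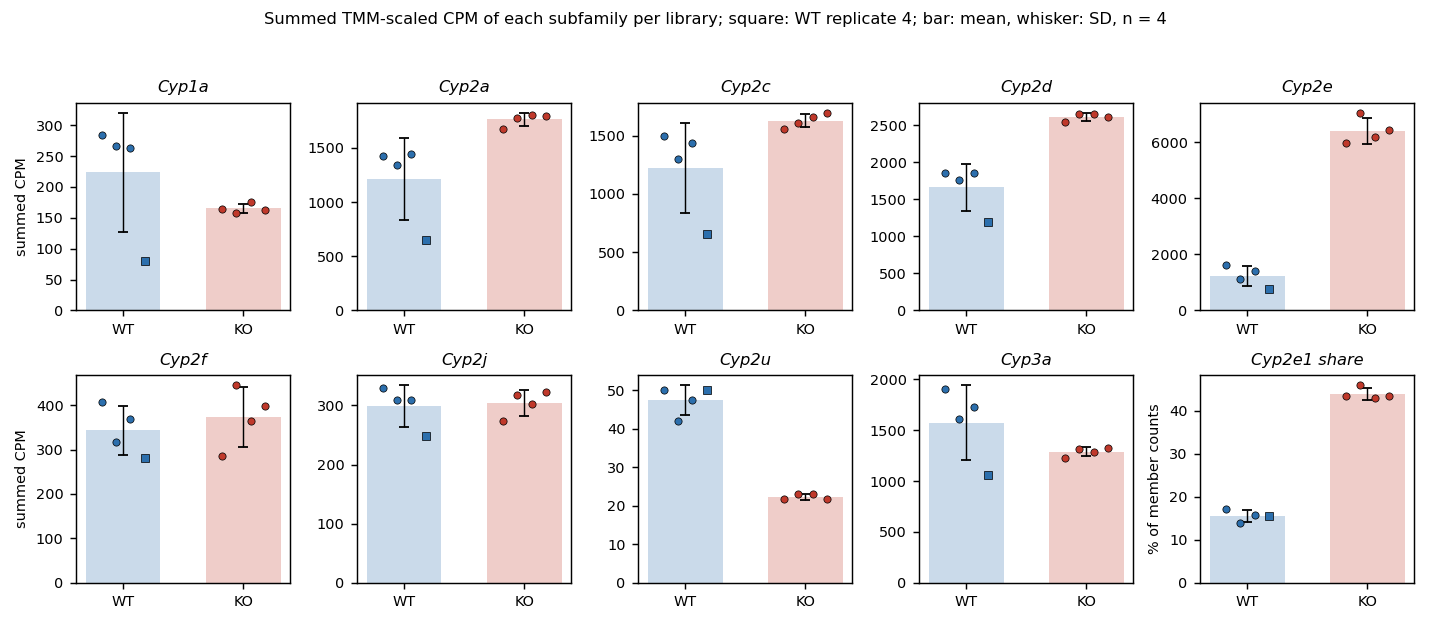
Summed TMM-scaled CPM of 9 subfamilies per library, and in the last panel the percent of member counts that Cyp2e1 took. Bars are means, whiskers the SD over 4 libraries, and the square is wild-type replicate 4. Cyp2e shows the widest gap, from 1223 to 6414 CPM, while the Cyp3a and Cyp1a groups overlap only through the square.

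Per kilobase of exon, which allows genes to be compared, Cyp2e1 led both groups, at a mean of 567 CPM per kb in the wild type and 2972 in the knockout. Next came Cyp2a5 (368 and 615), Cyp3a25 (320 and 261), Cyp2d10 (299 and 456) and Cyp2d26 (286 and 667). Among these 4 the order differed between wild-type libraries, also when wild-type replicate 4 is set aside. That library was low for Cyp2a5, Cyp2d10 and Cyp2d26 but not for Cyp3a25. In every knockout library Cyp3a25 was the lowest of them, as it was in wild-type replicates 1 and 3. Ratios of 2 members within a library moved in the same way as the levels. Cyp2e1 held 35.3 to 44.6 counts for each count of Cyp1a2 in the knockout and 4.18 to 9.59 in the wild type, and Cyp2c37 held 1.63 to 1.86 for each count of its close relative Cyp2c50 against 0.794 to 1.23. In both pairs the knockout libraries were all above the wild-type libraries. The differences between members of a pair were not tested beyond this.

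Cyp2c37 and Cyp2c50 lie in the same gene cluster, and their promoters are shown as a second related pair, of which 1 gene rose and the other did not pass. Both are on the plus strand of GRCm38.p6 (RefSeq), at chr19:39992174-39992453 and chr19:40089429-40089708, with the same span around the start as above. Over 279 aligned bases 245 were the same, and capitals mark the 30 mismatches and 4 bases with no partner.
Cyp2c37: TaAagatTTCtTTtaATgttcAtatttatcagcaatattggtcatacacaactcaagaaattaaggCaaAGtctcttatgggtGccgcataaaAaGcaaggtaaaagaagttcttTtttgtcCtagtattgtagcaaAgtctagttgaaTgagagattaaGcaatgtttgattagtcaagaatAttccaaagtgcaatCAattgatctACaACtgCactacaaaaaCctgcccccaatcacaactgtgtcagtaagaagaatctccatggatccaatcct
Cyp2c50: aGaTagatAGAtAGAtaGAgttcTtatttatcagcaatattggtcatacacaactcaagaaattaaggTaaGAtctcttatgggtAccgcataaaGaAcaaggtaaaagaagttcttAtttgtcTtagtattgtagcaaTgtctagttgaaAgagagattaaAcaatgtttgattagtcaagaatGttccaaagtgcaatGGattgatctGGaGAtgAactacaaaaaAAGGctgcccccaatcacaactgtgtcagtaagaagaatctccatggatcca

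Most members lie in 5 gene clusters. In the Cyp2c cluster, 4 of 10 tested members rose, at Cyp2c38, Cyp2c39, Cyp2c69 and Cyp2c37, with Cyp2c67, Cyp2c68 and Cyp2c40 in between that did not pass. In the Cyp2d cluster the 2 that rose, Cyp2d40 and Cyp2d26, are neighbours at its end. In the Cyp2j cluster the 2 that fell, Cyp2j6 and Cyp2j9, are neighbours too. The cluster that holds Cyp2a, Cyp2b, Cyp2f, Cyp2g, Cyp2s and Cyp2t genes had 1 higher and 1 lower among 8 tested, and the Cyp3a cluster had 0 calls among 3, where without wild-type replicate 4 all 3, Cyp3a11, Cyp3a25 and Cyp3a59, were lower. These counts are small, beside 21.0% called among all tested genes, and no test was made between clusters. Cyp3a13 lies apart from the other Cyp3a genes.

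**Figure D4:**
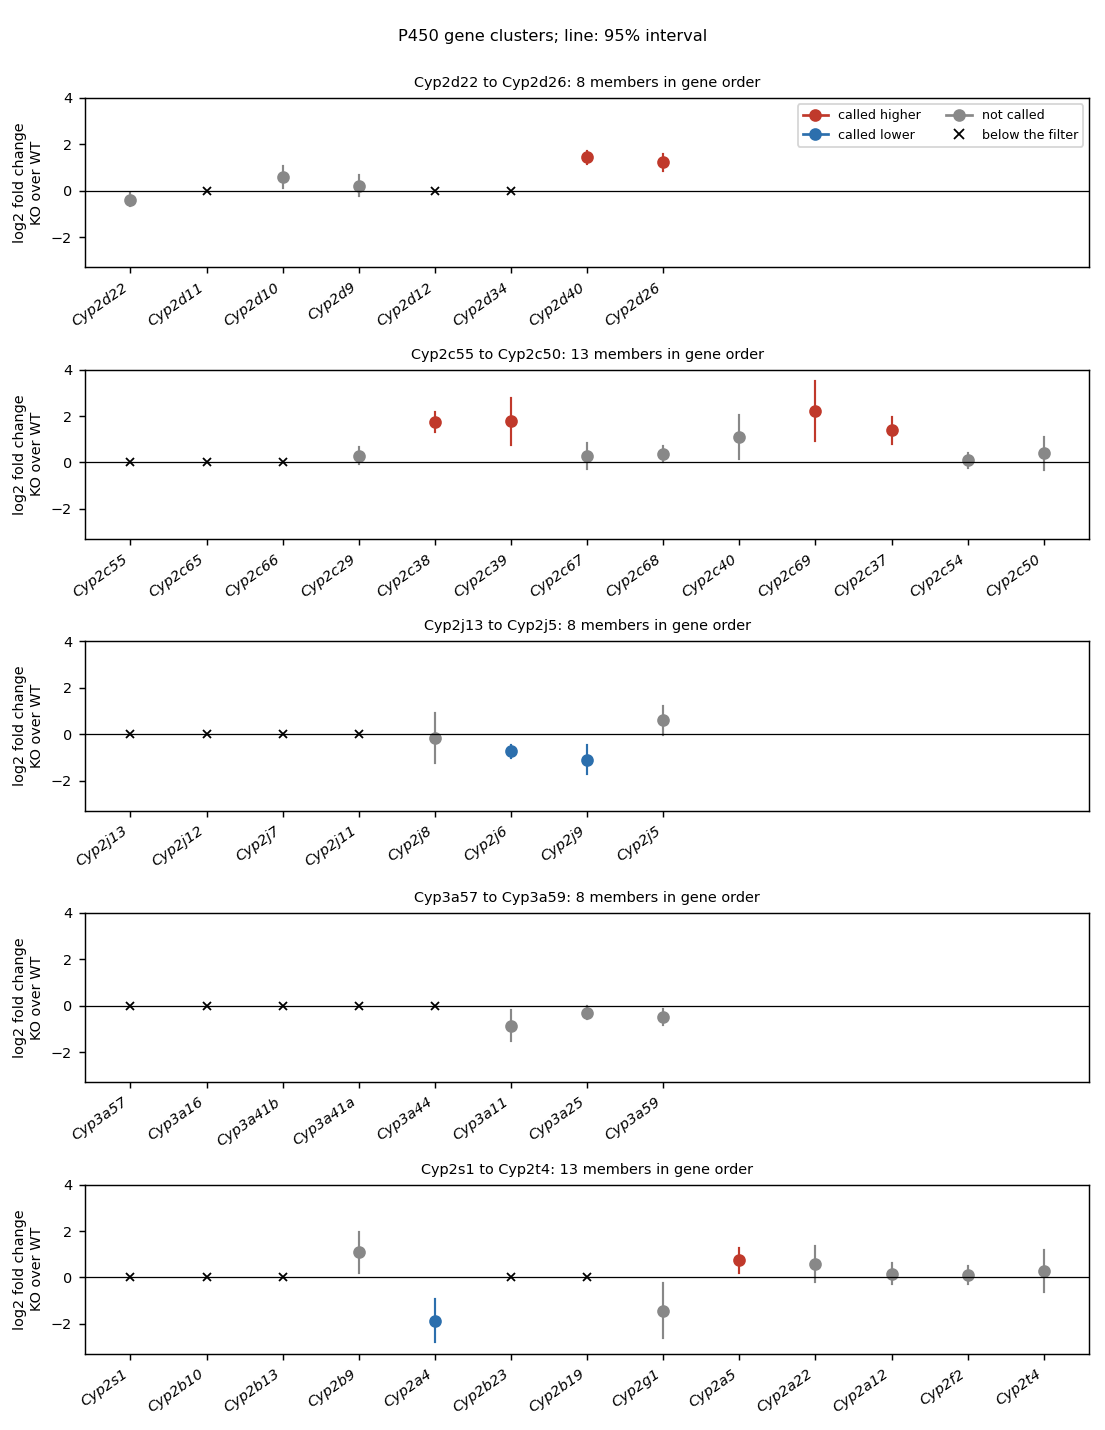
Log2 fold change, knockout over wild type, of the members in the 5 clusters with at least 8 members, in gene order, with 95% intervals as lines. Crosses at 0 are members below the filter, which have no value. Red points are higher, blue lower and grey not called: 4 red in the Cyp2c cluster, 2 red in the Cyp2d cluster, 2 blue in the Cyp2j cluster, 1 of each in the Cyp2a to Cyp2t cluster and none coloured in the Cyp3a cluster.

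By known zonation, 3 of the 8 members of the pericentral list rose, Cyp2e1, Cyp2c37 and Cyp2a5, and 0 fell. The other 5, Cyp1a2, Cyp2c29, Cyp2c50, Cyp2c54 and Cyp3a11, did not pass, and without wild-type replicate 4 Cyp1a2 and Cyp3a11 were lower. Outside the P450 genes, 4 of 9 pericentral markers rose, among them the glutamine synthetase Glul (log2 fold change 1.69) and the glutamate transporter Slc1a2 (1.05), and Lhpp fell (-1.10). These counts were 4 and 3 without wild-type replicate 4. Over all tested genes 10.4% were higher and 10.7% lower, or 17.8% and 17.5% without that library. The summed level of the pericentral markers was 1826 to 1994 CPM in the knockout and 688 to 2125 CPM in the wild type. Of 8 periportal markers 1 rose and 3 fell (1 and 5 without that library, 0 and 0 by library size only), with sums of 7720 to 9397 CPM and 9699 to 13968 CPM. The groups overlapped in the pericentral sum and were apart in the periportal sum. The part of zonation in the results for Cyp2e1 and Cyp2c37 was not tested.

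By known sex bias, the female list had 4 tested members of 10, with Cyp2c69 higher and Cyp2a4 lower (3 higher and 2 lower of 5 without wild-type replicate 4), and the male list of Cyp2d9, Cyp2f2 and Cyp2u1 had Cyp2u1 lower. Of the AhR-responsive members, 0 of 1 tested passed. Of the CAR- and PXR-responsive members, Cyp2c37 and Cyp3a13 rose, Cyp2c29 and Cyp3a11 did not pass, and Cyp2b10 and Cyp2c55 were below the filter. Without wild-type replicate 4 all 6 were tested, with 2 higher and 3 lower. By library size only 1 was higher and 0 lower. Beside the counts in this paragraph, 10.4% of all tested genes were higher and 10.7% lower. These shares were 17.8% and 17.5% without that library, and 4.25% and 0.939% by library size only.

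The receptors and liver factors that drive or restrain P450 genes were counted as a fixed list of 24, all tested. With all libraries 5 were higher and 1 lower, with a median log2 fold change of 0.11. Without wild-type replicate 4, 8 were higher and 4 lower. Over all tested genes 10.4% were higher and 10.7% lower, or 17.8% and 17.5% without that library. Nr1i3, which encodes CAR, read 659, 549, 617 and 567 CPM in the knockout and 254, 291, 262 and 391 CPM in the wild type. The groups were apart, and it rose by 1.00 ± 0.16 (log2, SE; edgeR adjusted p = 0.00179), which held under all 19 alternatives. Nr1i2, which encodes PXR, did not pass (-0.26, 95% interval -0.66 to 0.13), nor did Ahr (0.53, 0.04 to 1.02) or the liver factor Hnf4a (0.13, -0.16 to 0.42). Rxra, the shared partner of CAR and PXR, rose (0.68, adjusted p = 0.00376), as did the fatty acid receptor Ppara (1.08, adjusted p = 0.000244) and the cytokine-responsive factor Stat3 (1.09, adjusted p = 0.000119). Onecut1, a factor of hepatocyte differentiation, fell (-1.74, adjusted p = 0.00462). The fifth to rise was Cux2, a factor of female liver, named after its values were seen (1.45, adjusted p = 0.0296), and its call was lost with any of 6 libraries left out (adjusted p up to 0.108 over all its alternatives). Library size scaling ended the calls of Rxra and Onecut1.

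Of the genes that CAR and PXR are known to raise outside the P450 families, 12 were tested, with 1 higher and 3 lower. Without wild-type replicate 4, 3 were higher and 5 lower. Shares over all tested genes were 10.4% higher and 10.7% lower, and 17.8% and 17.5% without that library. The glutathione transferases Gstm1 (-1.38) and Gsta2 (-1.71) and the transporter Slco1a4 (-0.53) fell, and Aldh1a1 rose (1.11). The groups of Gstm1 and Gsta2 overlapped through wild-type replicate 4. For Gstm1 it read 668 CPM, below every knockout library (769 to 850 CPM). For Gsta2 it read 28.7 CPM, within the knockout range (21.0 to 29.5 CPM). Without wild-type replicate 4 these 2 genes had -1.67 and -1.96. Leaving out single libraries ended the calls of Gstm1, Slco1a4 and Aldh1a1, and library size scaling ended all 4 and turned Slco1a4 to 0.10. Of 5 AhR targets outside the P450 families 3 were tested and 0 passed, with log2 fold changes from -0.34 to -0.16.

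Of 11 tested genes for electron supply and partner enzymes, 3 rose and 2 fell, with a median log2 fold change of 0.28. Without wild-type replicate 4, 5 were higher and 3 lower. Beside these and the haem genes below, 10.4% of all tested genes were higher and 10.7% lower (17.8% and 17.5% without that library). Por, the reductase that feeds all microsomal P450s, read 560, 645, 611 and 622 CPM in the knockout and 322, 320, 339 and 281 CPM in the wild type. It rose by 0.95 ± 0.13 (log2, SE; edgeR adjusted p = 0.000505), with groups apart. The microsomal cytochrome b5, Cyb5a, did not pass (0.22, 95% interval -0.56 to 1.00), while the outer mitochondrial form Cyb5b (-1.08, adjusted p = 0.000256) and the reductase Cyb5r3 (-1.16, adjusted p = 0.00539) fell. The soluble epoxide hydrolase Ephx2, which acts on the epoxides that P450s make, rose (0.71, adjusted p = 0.0035), as did the flavin monooxygenase Fmo2 (1.56, adjusted p = 0.000121). Of 10 genes for haem, 4 rose and 0 fell: Cpox (1.76), Fech (0.74), Urod (0.60) and the haem oxygenase Hmox2 (0.73). These counts were 5 and 3 without wild-type replicate 4. The rate-limiting Alas1 did not pass (-0.35, adjusted p = 0.0587), though it was below the wild type in every knockout library. Of the calls in this paragraph, library size scaling kept those of Fmo2, Cpox and Hmox2 and ended the others, and that of Hmox2 was lost without knockout replicate 2, knockout replicate 4 or wild-type replicate 2 (adjusted p up to 0.0932 over all its alternatives).

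**Figure D5:**
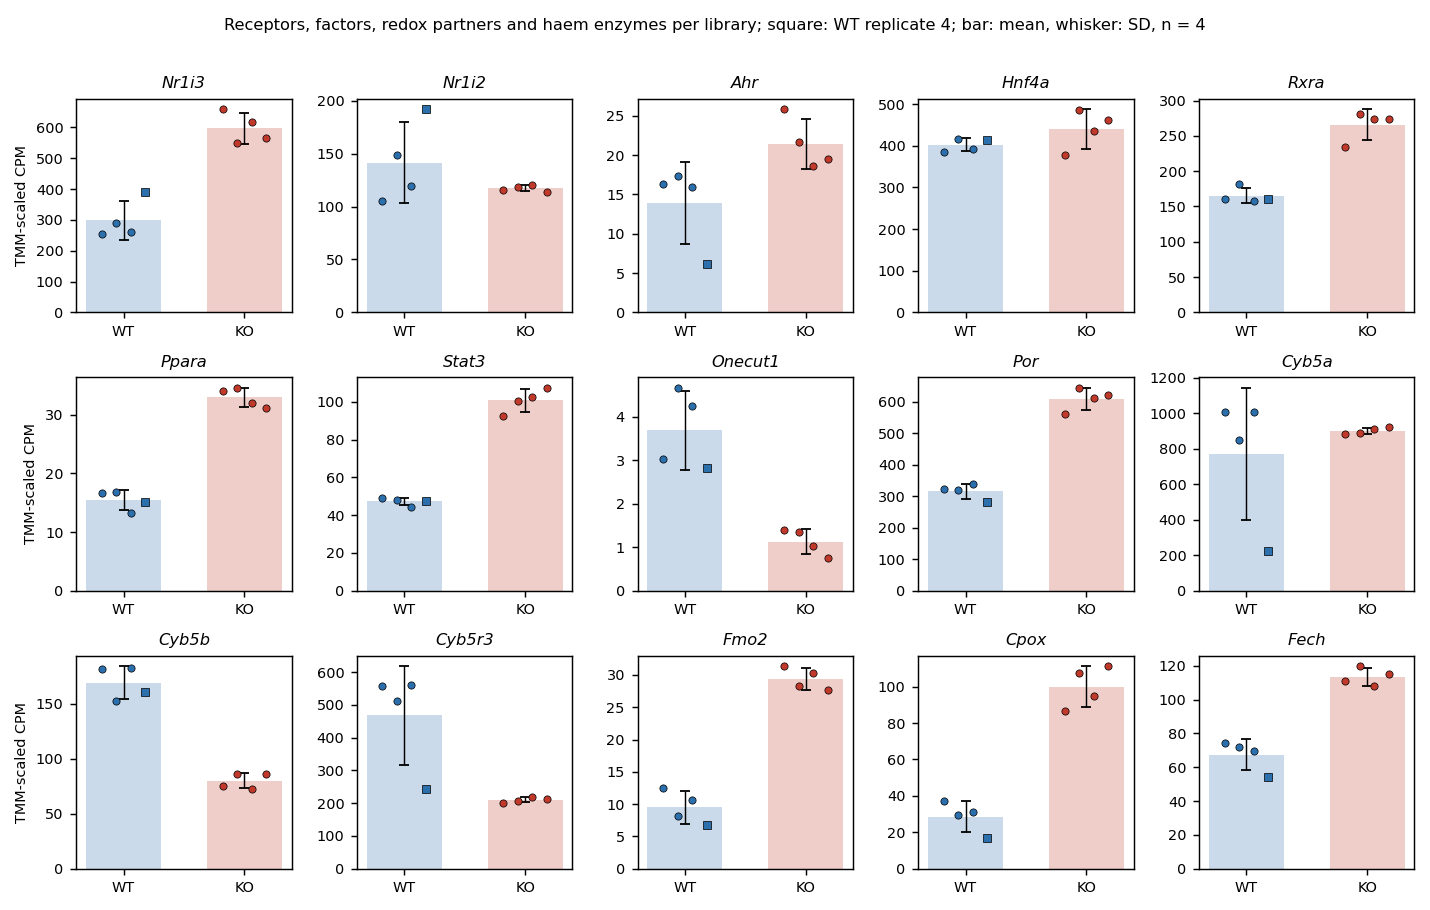
TMM-scaled CPM per library of receptors and factors (Nr1i3 to Onecut1), electron partners (Por to Fmo2) and haem enzymes (Cpox, Fech). Bars are means, whiskers the SD over 4 libraries, and the square is wild-type replicate 4. The groups of Nr1i3 and of Por are apart, while those of Nr1i2, Hnf4a and Cyb5a overlap.

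The 40 other protein-coding P450 genes, which make bile acids, sterols and fatty acid metabolites, had 26 tested, with 5 higher and 11 lower and a median log2 fold change of -0.45, against 9 and 4 and 0.27 for the members. By library size only the other P450 genes had 5 higher and 2 lower, and the members 7 and 0. Without wild-type replicate 4 the other P450 genes had 5 higher and 14 lower of 27, and the members 15 and 14 of 39. Shares over all tested genes were 10.4% higher and 10.7% lower, and 17.8% and 17.5% without that library. The difference between these groups of genes was not tested. The 4 smallest p among them were for Cyp26a1, which breaks down retinoic acid (-3.02), the fatty acid hydroxylases Cyp4a14 (6.84) and Cyp4a10 (4.62), and Cyp4a31 (4.55).

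Markers of other cells also differed between the groups, where 10.4% of all tested genes were higher and 10.7% lower. The 8 hepatocyte markers had 1 higher and 2 lower, and their summed level overlapped, at 51700 to 57371 CPM in the knockout and 55671 to 73918 CPM in the wild type. Endothelial markers had 4 higher of 6 (summed 70.2 to 139.8 CPM against 40.7 to 60.7 CPM), and Kupffer cell markers had 3 higher of 6 (92.8 to 107 against 27.5 to 127 CPM). B cell markers had 5 lower of 5 (2.7 to 8.22 against 23.5 to 55.8 CPM), and T and NK cell markers had 2 lower of 4 (3.53 to 5.18 against 7.01 to 12.5 CPM). Stellate cell markers had 2 lower of 8 (124 to 138 against 112 to 242 CPM), and cholangiocyte markers had 1 higher of 2 tested (31.4 to 33.0 against 10.1 to 20.3 CPM). The 1 neutrophil marker tested did not pass, and Mpo and Ngp had 0 counts in all. By library size only the lower calls were 2 of 5 for B cells and 0 of 4 for T and NK cells, and with the replicate block 3 and 0. The T and NK calls numbered 0 with any single library left out, except 1 without knockout replicate 4 and 3 without wild-type replicate 4. Leaving out wild-type replicate 4 made 4 hepatocyte markers lower and 5 Kupffer cell markers higher. The higher Kupffer calls numbered 4 by library size only, 2 with any knockout library left out and 0 of 3 with thinning. Endothelial calls numbered 5 by library size only and 2 of 5 with thinning. The cholangiocyte call was lost by library size only, with the replicate block and without knockout replicate 2, 3 or 4. The part of these cells in the members' results was not tested.

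Copies are common in these families. The share of 50-base stretches found in other genes was 60.3% for Cyp2c40, 52.8% for Cyp2c67, 43.3% for Cyp2c68, 35.8% for Cyp2d10, 30.1% for Cyp2c37 and 30% for Cyp3a59, and values of such members are less certain. It was 3.87% for Cyp2e1, 7.45% for Cyp2c38, 0.422% for Cyp2j6, 2.6% for Cyp2u1 and 0% for Cyp2j9. RefSeq promoters, from 250 bases before to 50 after the start, were found for 52 of the 60 members. The letters GCGTG, the core of the AhR response element, occurred on either strand in 10 of them (19.2%) and in 32.5% of all 27025 promoters, and Cyp2j9 was the 1 called member among the 10. Direct repeats of AGGTCA with 4 bases or 1 base between occurred in 0 member promoters, and in 0.0111% and 0.0444% of all promoters. These are matches of letters in a short window and say nothing about binding.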

How the data were processed

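Liver RNA was sequenced in bulk in 8 libraries. The authors deposited raw counts per Ensembl gene, not normalized. Per the submitters' processing notes, reads were trimmed with cutadapt 4.2 and aligned with STAR 2.7.10a to mm39. The counter, its annotation, strand and the treatment of reads that match several genes are not given in the sources used here. Symbols, exon lengths, gene order and 3′ UTRs came from GENCODE M21 (GRCm38), which named 52125 of the IDs, so no mm39 coordinates are given. Rows named no total or unassigned class.

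Knockout was compared with wild type in R 4.3.3 with edgeR 4.0.16: TMM, filterByExpr by group, robust quasi-likelihood fits, two-sided, Benjamini-Hochberg adjustment over 13204 genes, threshold 0.05. Steps were tested on simulated data. Members and lists were chosen with earlier results of these data known. Named were, with values per library, the most abundant member of each subfamily and up to 4 called members, then Nr1i3, Nr1i2, Ahr, Por, Hnf4a and Cyb5a and up to 4 called genes per list; not all are reported, and Cyp2b10, Cyp2c55, uncalled list genes and the members in ratios were named after their values were seen. The 19 alternatives were other scalings, filters, DESeq2 1.42.0, limma-voom (limma 3.58.1) with and without quality weights, thinning, a replicate block and each library left out. Promoters were aligned with Biopython 1.88, and figures drawn with matplotlib 3.10.9.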

Additional observations from a re-analysis of the deposited data

Results flagged for a closer look

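In 9 of 100 groups of 4 libraries tested among the members and subfamily sums, 1 library lay far outside the other 3 by Dixon's criterion, and each time it was wild-type replicate 4, on the low side. Chance flags about 1 in 20 groups, and members of the same library are not independent. Its levels were 80.4 CPM for Cyp1a2 (others 263 to 283), 235 for Cyp2a12 (439.8 to 478), 375 for Cyp2a5 (852 to 912), 79.3 for Cyp2c37 (204 to 213) and 184 for Cyp2d9 (345 to 371). The sums were 80.4 for Cyp1a (263 to 284), 649 for Cyp2a (1339 to 1439), 0 for Cyp2b (4.55 to 5.31) and 1193 for Cyp2d (1760 to 1856). In the same library Cyp2d40, Cyp2u1, Cyp3a13 and Cyp2c54 were not singled out by this criterion.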

How the results depend on the processing

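Against 9 members higher and 4 lower, the counts were 7 and 0 by library size only, 11 and 9 with the DESeq2 Wald test, 14 and 11 by limma-voom with quality weights, and 6 to 15 and 3 to 14 with single libraries left out, the highest without wild-type replicate 4. Against 1369 genes higher and 1408 lower in all, they were 561 and 124 by library size only, 2409 and 2541 with quality weights, 776 and 858 with thinning to equal nuclear depth, and 760 to 2446 and 728 to 2407 with single libraries left out. With the replicate block, 6 members were higher and 2 lower, and 643 and 624 genes in all. The labels give no pairing by replicate number. Deviations of same-numbered libraries correlated at -0.193 to -0.032, which with 4 libraries per group cannot settle whether any were paired. The block ended the calls of Cyp2a4, Cyp2a5, Cyp2c39, Cyp2c69 and Cyp2j9. By library size only, the log2 ratio of summed means was 0.75 for Cyp2b, 1.14 for Cyp2d, 0.63 for Cyp2f, 0.55 for Cyp2j, 0.85 for Cyp2t, -0.51 for Cyp2u and 0.18 for Cyp3a, where it changed sign. That of Cyp2b ran from 0.033 without wild-type replicate 4 to 0.66 without wild-type replicate 3. No called member changed direction under the alternatives that tested it, which were 13 of 19 for Cyp2c69, 17 for Cyp2c39 and 19 for the other called members. Thinning leaves fewer genes to test, and for the other changes the cause was not tested. Values of members with few counts per library, such as Cyp2c39, Cyp2c69, Cyp2b10 and Cyp2c55, are limited by depth.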

Other observations

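Among the rows with symbols ending in -ps, which are annotated as pseudogenes and were not counted as members, Cyp2d41-ps was higher in the knockout, with 30 to 38 counts per library against 0 to 6 (edgeR quasi-likelihood adjusted p = 0.00553). Cyp2d40, which rose, shares 8.05% of its 50-base stretches with it. Cyp2d37-ps had 1605 to 2130 counts per library in the knockout and 340 to 1207 in the wild type, and did not pass (log2 fold change -0.03, 95% interval -0.43 to 0.37).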
